A study of Mus musculus with 24 samples.

Results

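The genes that encode the receptors for glutamate, GABA and glycine were examined in the retinas of mice exposed to a blast. The members were chosen by gene symbol: every AMPA (Gria), NMDA (Grin), kainate (Grik), delta (Grid) and metabotropic (Grm) glutamate receptor gene, every GABA-A (Gabra, Gabrb, Gabrg, Gabrd and Gabrr) and GABA-B (Gabbr) gene, and the glycine receptor genes Glra1 to Glra4 and Glrb. Grina, whose symbol resembles theirs, was left out. This gave 49 genes, 26 for glutamate and 23 for GABA and glycine. Of these, 47 were among the 14922 genes measured at 1 week and 48 among the 15920 genes measured at 5 weeks. Gabra6 was not analysed here at either timepoint, and Grin3b was not analysed at 1 week.

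Adult male C57BL/6J mice, held in a closed chamber, either received a blast wave, a model of blast-mediated traumatic brain injury (bTBI), or were sham treated. Retinas were collected at 8 days (the 1-week timepoint) or at 5 weeks, with 6 retinas in each of the 4 groups and 24 in all. Sham and bTBI mice shared strain, sex and housing, and each retina was compared with the sham retinas of its own timepoint. RNA was extracted with a different kit at each timepoint, and the 2 tables were normalized separately, so levels at 1 week and 5 weeks are set side by side without a test. The label gives the cell type as retinal ganglion cell (RGC), but the tissue as retina. The 8 rod markers summed to 71010 to 92890 CPM in the sham retinas at 1 week (CPM, read counts scaled to a common effective library size), while the RGC marker Rbpms was at 19.7 to 42.9 CPM in the retinas of that timepoint, so the values are those of a whole retina and not of isolated RGCs.

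Glutamate is the transmitter of photoreceptors, bipolar cells and RGCs, and GABA and glycine are the transmitters of the amacrine and horizontal cells that shape their output. AMPA, NMDA and kainate receptors are glutamate-gated cation channels built from subunits, whereas metabotropic glutamate receptors and the GABA-B receptor act through G proteins. GABA-A and glycine receptors are chloride channels. In the retina, ON bipolar cells respond to light through the metabotropic receptor gene Grm6, OFF bipolar cells through AMPA and kainate receptors, and RGCs carry AMPA, NMDA, GABA-A and glycine receptors, while the Gabrr subunits are best known from bipolar cell terminals.

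No receptor gene was differentially expressed between bTBI and sham retinas at the threshold that the study used, a Benjamini-Hochberg adjusted p under 0.005, here with limma on log2(CPM + 1). The count was 0 of 47 at 1 week, where 2.25% of all measured genes passed (336 of 14922), and 0 of 48 at 5 weeks, where 0.835% passed (133 of 15920). Small differences can be missed at this threshold. In simulated data it called 6% of genes changed by 0.25 (log2) at 1 week and 24% at 5 weeks. For changes of 0.5 the shares were 62% and 78%. The changed genes were drawn at random from all genes and were raised, so these shares are not limits for the receptor genes themselves. At an unadjusted p under 0.05, 20 of 47 members were lower in bTBI and 0 were higher at 1 week, against 8.93% and 8.32% of all genes. At 5 weeks 11 of 48 were lower and 2 were higher, against 6.95% and 3.97% of all genes. At a looser threshold, an adjusted p under 0.05, 3 members were lower at 1 week, namely Gabbr2, Glrb and Grin2a, where 3.06% of all genes were lower. Gabbr2 was the 1 member of 48 at 5 weeks, a count near the share over all genes, of which 1.93% were lower. Under other processing up to 3 members passed 0.005 at 1 week: the same 3 genes did so when all 24 retinas were fitted together (adjusted p = 0.00245 for Gabbr2, 0.00209 for Glrb and 0.00479 for Grin2a). More of all genes passed 0.005 in that fit as well, with the counts given in the closing section on processing.

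The differences were small and mostly pointed one way. At 1 week 41 of 47 members had a log2 fold change below 0, against 50.1% of all genes, and the median was -0.12, with a range of -0.43 to 0.13. The median of all genes was within 0.005 of 0 in this comparison under each of the scalings tried. Scaling by effective library size or median of ratios holds the typical gene near 0, so this is not a test of the members' shift. All 22 GABA and glycine receptor genes were below 0 (median -0.14), as were 19 of 25 glutamate receptor genes (median -0.07). At 5 weeks 33 of 48 members were below 0, against 49.4% of all genes, with a median of -0.03 and a lowest value of -0.25. GABA and glycine receptor genes were then below 0 in 14 of 22 cases and glutamate receptor genes in 19 of 26. The 95% intervals of 44 of 47 members at 1 week lay wholly between log2 fold changes of -0.5 and 0.5. Those of Grin2a, Gabra5 and Gabrg1 reached lower values. At 5 weeks 47 of 48 lay within these bounds, Grin2c being the exception.

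**Figure D1:**
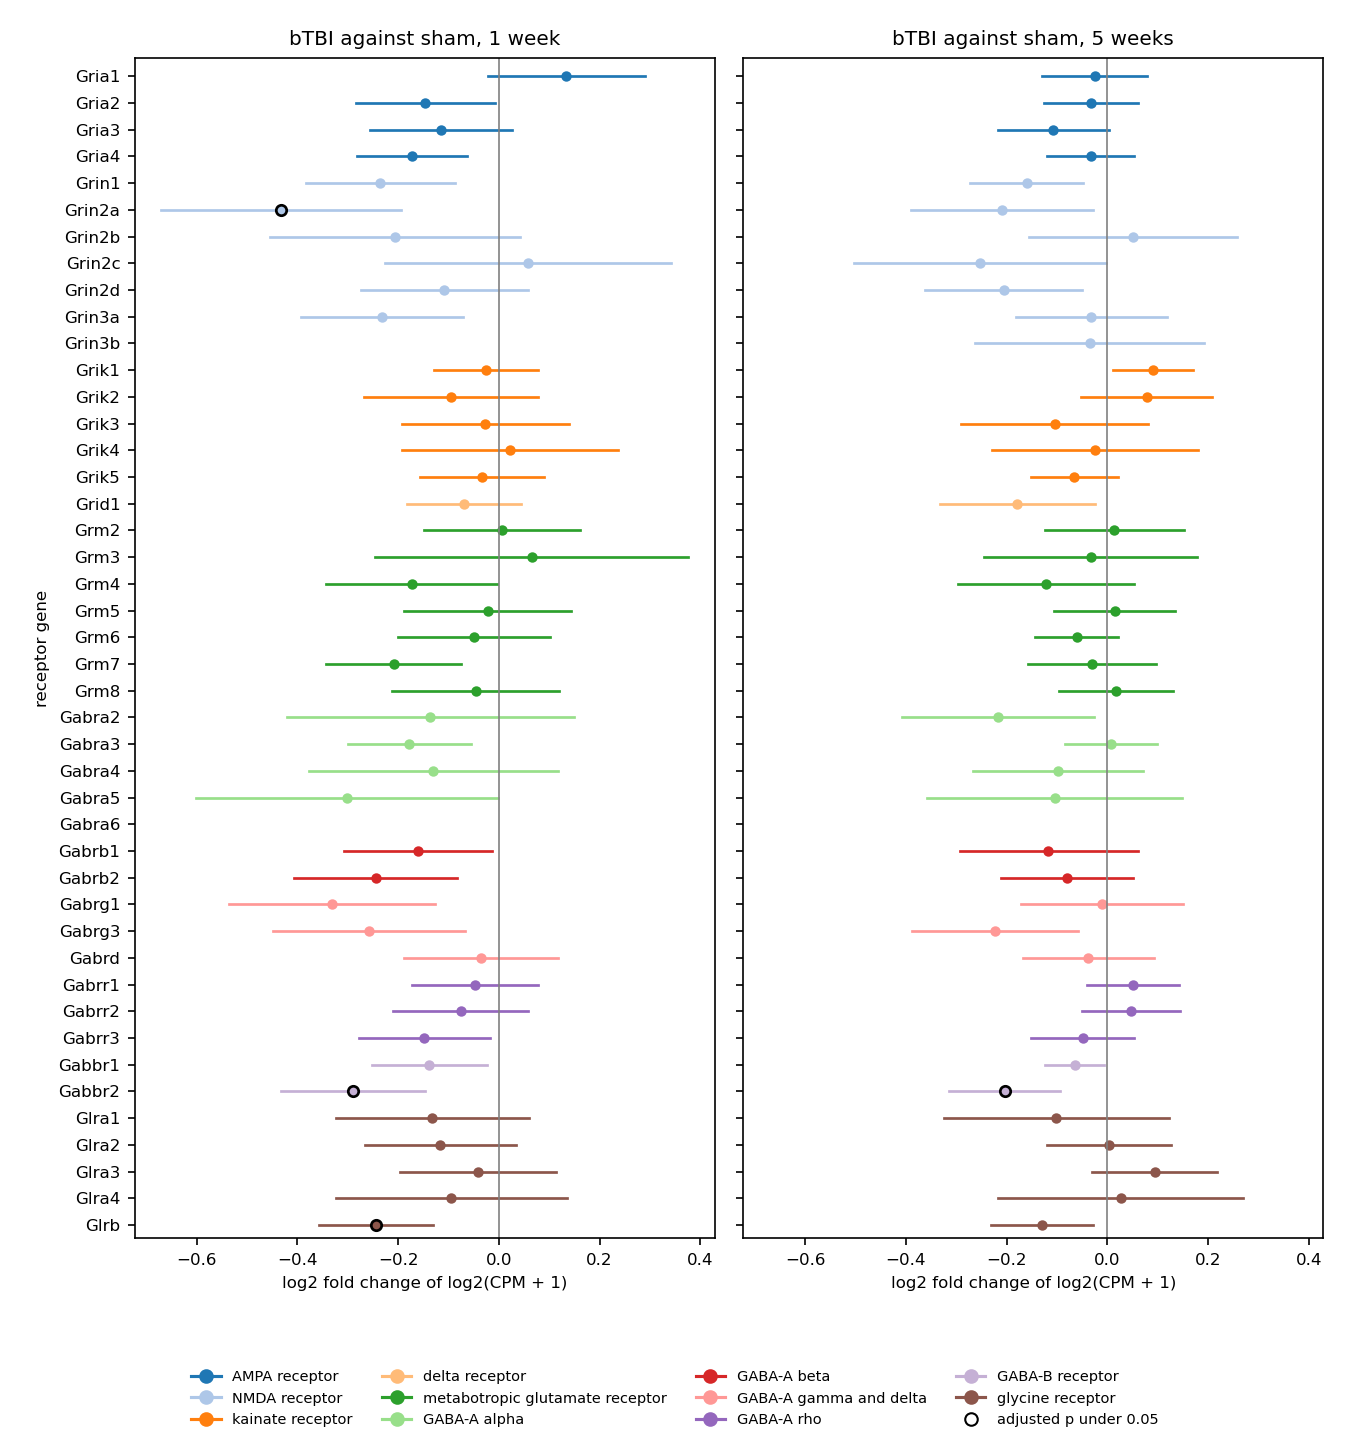
Log2 fold changes of bTBI against sham retinas (x axis, from log2(CPM + 1)) for the receptor genes reported (y axis) at 1 week (left) and 5 weeks (right), with 6 retinas a group. Points are limma estimates, lines are 95% intervals, colors give the receptor class, and a black ring marks an adjusted p under 0.05: Grin2a, Gabbr2 and Glrb at 1 week and Gabbr2 at 5 weeks. At 1 week 37 of the 42 points drawn lie to the left of 0.

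Among the members, the GABA-B receptor gene Gabbr2 had an adjusted p under 0.05 at both timepoints. Gabbr2 (chr4:46662305-46991873 in GRCm38, minus strand) encodes the subunit that couples the heterodimeric GABA-B receptor to G proteins and carries its partner to the cell surface. At 1 week it was at 106, 115, 102, 89.4, 99.9 and 114 CPM in sham replicates 1 to 6 and at 75.5, 94.4, 88.7, 89.2, 83.5 and 79.4 CPM in bTBI replicates 1 to 6. Only bTBI replicate 2 lay above the lowest sham retina, and 5 of 6 bTBI retinas were below every sham retina. The mean was 104 ± 9.57 CPM in sham and 85.2 ± 6.97 CPM in bTBI (SD, n = 6), 81.6% of sham. The log2 fold change was -0.29 ± 0.07 (SE, adjusted p = 0.0159, limma).

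At 5 weeks Gabbr2 was at 63.4, 63.9, 64.1, 68.2, 62.0 and 57.4 CPM in the sham retinas and at 46.1, 54.6, 56.8, 59.9, 57.1 and 54.5 CPM in the bTBI retinas. Again 5 of 6 bTBI retinas were below every sham retina, and the lowest was bTBI replicate 1. The mean in bTBI was 86.8% of sham, with a log2 fold change of -0.20 ± 0.05 (SE, adjusted p = 0.0473, limma). The adjusted p ranged from 0.0264 to 0.165 over 8 alternatives and from 0.0154 to 0.151 over the 12 fits without 1 retina. It was under 0.05 in 5 of the former and 2 of the latter, so the 5-week value lies on the threshold. Gabbr1, which encodes the subunit that binds GABA, was at -0.14 on the log2 scale at 1 week (unadjusted p = 0.0205, limma) and -0.06 at 5 weeks (unadjusted p = 0.033). All 6 bTBI retinas were below the sham median in Gabbr1 at each timepoint, yet neither value passed after adjustment (adjusted p = 0.173 and 0.38, limma).

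Glrb was the 1 member of 47 whose bTBI and sham retinas did not overlap at 1 week. That count is near the share over all genes, 2.25% of which had every bTBI retina below every sham retina. Glrb (chr3:80843599-80913660 in GRCm38, minus strand) encodes the beta subunit of the glycine receptor, which binds gephyrin and so holds the receptor at the synapse. It was at 83.2, 80.6, 77.4, 75.7, 83.6 and 76.7 CPM in sham replicates 1 to 6 and at 69.1, 75.1, 62.1, 70.4, 62.1 and 64.2 CPM in bTBI replicates 1 to 6. The highest bTBI retina, replicate 2, came to within 1 CPM of the lowest sham retina. The mean was 79.5 ± 3.42 CPM in sham and 67.2 ± 5.23 CPM in bTBI (SD, n = 6), 84.4% of sham, with a log2 fold change of -0.24 ± 0.05 (SE, adjusted p = 0.0112, limma). At 5 weeks Glrb was at 60.9, 68.4 and 70.4 CPM in sham and at 56.4, 61.2 and 68.0 CPM in bTBI (lowest, median and highest), and the groups overlapped. The log2 fold change was then -0.13 (95% interval -0.23 to -0.03, adjusted p = 0.271, limma). At 5 weeks 0 members had groups that did not overlap, against 1.75% of all genes with bTBI below sham. At that timepoint 11 members were lower at an unadjusted p under 0.05 by limma, as given above.

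The pore-forming glycine receptor genes, which encode the alpha subunits, had log2 fold changes between -0.13 (Glra1) and -0.04 (Glra3) at 1 week and between -0.10 (Glra1) and 0.09 (Glra3) at 5 weeks, and 0 of these 4 genes had an unadjusted p under 0.05 at either timepoint by limma. The 95% interval of Glra1 at 1 week, -0.32 to 0.06, still held the value measured for Glrb.

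Grin2a had the lowest log2 fold change of all members at 1 week on the log2(CPM + 1) scale. By mean CPM the low gene Gabra5 was further below sham, at 65.3% of it. Grin2a (chr16:9567898-9995560 in GRCm38, minus strand) encodes a glutamate-binding NMDA receptor subunit that gives the channel fast kinetics. It was at 15.9, 20.2, 17.6, 13.9, 17.0 and 20.2 CPM in sham replicates 1 to 6 and at 9.30, 14.9, 14.1, 13.6, 13.2 and 11.3 CPM in bTBI replicates 1 to 6. All 6 bTBI retinas were below the sham median and 4 were below every sham retina, with sham replicate 4 lying among the bTBI values. The mean was 17.5 ± 2.46 CPM in sham and 12.7 ± 2.07 CPM in bTBI (SD, n = 6), 72.8% of sham, and the log2 fold change was -0.43 ± 0.11 (SE, adjusted p = 0.0299, limma). The adjusted p was under 0.05 in 6 of the 12 fits without 1 retina, with a range of 0.0137 to 0.0783. At 5 weeks the mean was 84.6% of sham, with a log2 fold change of -0.21 (95% interval -0.39 to -0.03, adjusted p = 0.337, limma).

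The pair of bTBI retinas with the most lens RNA at 1 week, replicates 5 and 6, was also left out. Without both 0 members had an adjusted p under 0.05, with adjusted p = 0.0934 for Gabbr2, 0.0866 for Glrb and 0.112 for Grin2a by limma on 10 retinas, and 14 of 47 were lower at an unadjusted p under 0.05. The log2 fold changes were then -0.26, -0.20 and -0.41, and no other pair was left out for comparison. Over all 9 alternatives the adjusted p ranged from 0.00245 to 0.0934 for Gabbr2, from 0.00209 to 0.0866 for Glrb and from 0.00479 to 0.112 for Grin2a. Gabbr2 and Glrb were under 0.05 in each of the 12 fits without 1 retina.

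**Figure D2:**
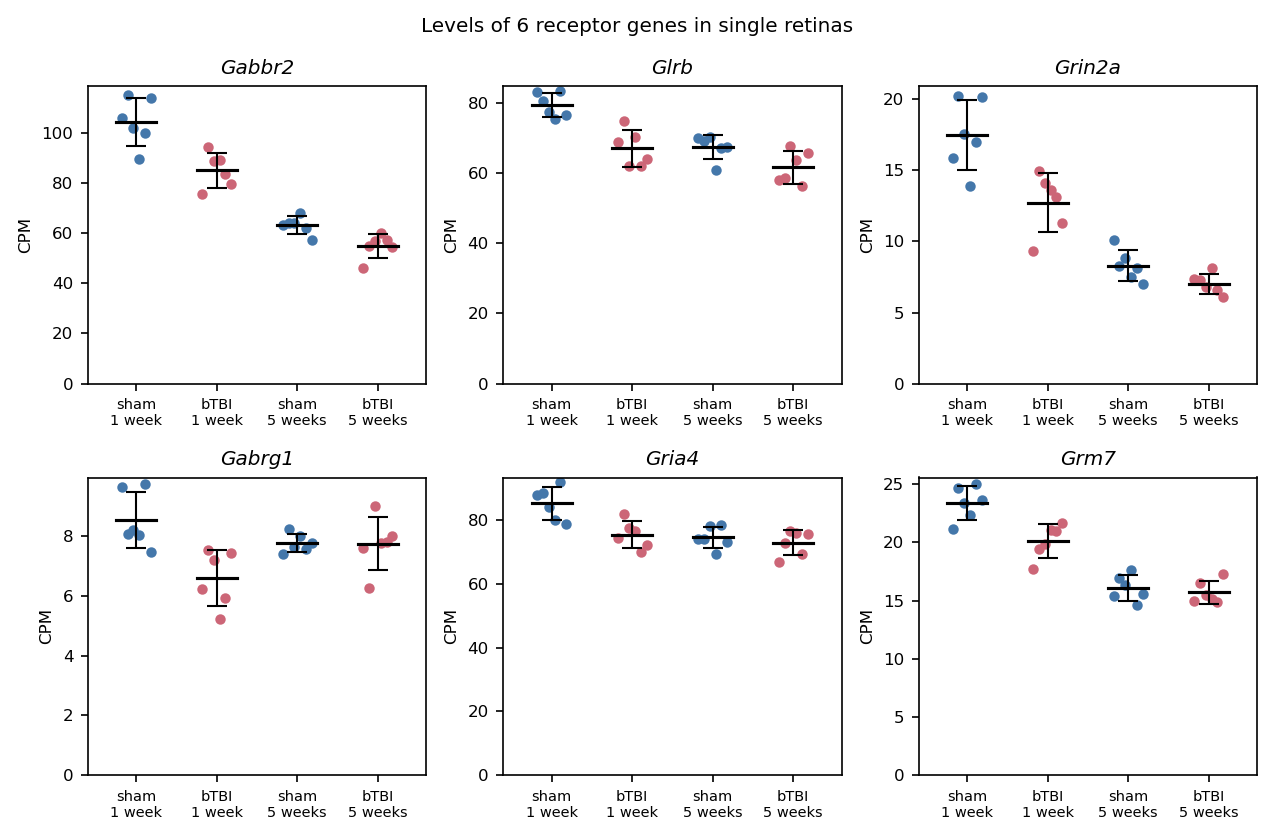
CPM (y axis) of Gabbr2, Glrb, Grin2a, Gabrg1, Gria4 and Grm7 in single retinas of the 4 groups (x axis, sham in blue and bTBI in red). Points are retinas in replicate order, long bars are means and error bars are SD (n = 6). At 1 week every bTBI retina lies below the sham mean in the 6 genes, and the groups are apart in Glrb alone.

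The other NMDA receptor genes were examined with Grin2a. Grin1, the subunit that every NMDA receptor needs, was at a log2 fold change of -0.23 at 1 week (unadjusted p = 0.00391, adjusted p = 0.0591, limma) and -0.16 at 5 weeks (unadjusted p = 0.00727, adjusted p = 0.188). All 6 bTBI retinas were below the sham median at 1 week and 5 of 6 were at 5 weeks. Grin3a, which encodes a glycine-binding subunit, was lower at 1 week at an unadjusted p under 0.05 (log2 fold change -0.23), whereas at 5 weeks Grin2c (-0.25) and Grin2d (-0.21), which encode glutamate-binding subunits, were. In all, 5 of 6 NMDA receptor genes at 1 week and 6 of 7 at 5 weeks had a fold change below 0, with medians of -0.22 and -0.16.

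Among the AMPA receptor genes Gria4 had the lowest p at 1 week. Gria4 was at 78.8, 86.0 and 92.2 CPM in sham and at 70.2, 75.5 and 82.1 CPM in bTBI (lowest, median and highest), with 5 of 6 bTBI retinas below every sham retina. Its log2 fold change was -0.17 ± 0.05 (SE, adjusted p = 0.0603, limma) at 1 week and -0.03 (95% interval -0.12 to 0.05) at 5 weeks. Gria3 had the lowest p of the class at 5 weeks, at 38.9, 41.8 and 44.7 CPM in sham and 33.5, 39.9 and 42.3 CPM in bTBI, groups that overlapped, with a log2 fold change of -0.11 (95% interval -0.22 to 0.004). Gria2, whose edited subunit makes AMPA receptors poorly permeable to calcium, was at a log2 fold change of -0.15 at 1 week, with all 6 bTBI retinas below the sham median (unadjusted p = 0.0406, adjusted p = 0.257, limma). Gria1 was the member with the highest log2 fold change at 1 week, 0.13 (95% interval -0.02 to 0.29), with 5 of 6 bTBI retinas above the sham median.

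The kainate receptor genes had small differences at 1 week. Their log2 fold changes lay between -0.10 (Grik2) and 0.02 (Grik4), with a median of -0.03, and 0 of 5 had an unadjusted p under 0.05 by limma. Grik2, the lowest in p, was at 10.2, 11.2 and 11.9 CPM in sham and at 8.31, 10.7 and 12.1 CPM in bTBI, and the groups overlapped. At 5 weeks Grik1, a subunit of the receptors on OFF cone bipolar cells, was one of the 2 members that were higher at an unadjusted p under 0.05. It was at 98.2, 103 and 112 CPM in sham and at 107, 109 and 118 CPM in bTBI, with all 6 bTBI retinas above the sham median but 1 above every sham retina. The log2 fold change of Grik1 was 0.09 (95% interval 0.01 to 0.17, adjusted p = 0.353, limma).

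Grid1 encodes a delta receptor, a synaptic organizer of the glutamate receptor family. Grid1 was at 21.5, 23.2 and 26.1 CPM in sham and 18.2, 20.0 and 24.9 CPM in bTBI at 5 weeks, with 4 of 6 bTBI retinas below every sham retina and a log2 fold change of -0.18 (95% interval -0.33 to -0.02, adjusted p = 0.337, limma). At 1 week its log2 fold change was -0.07 (95% interval -0.18 to 0.04).

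The metabotropic receptor genes had fold changes near 0 or below it. Grm7, a presynaptic receptor that lowers transmitter release, was at 21.2, 23.5 and 25.1 CPM in sham and at 17.7, 20.4 and 21.7 CPM in bTBI at 1 week. Of the bTBI retinas 5 of 6 were below every sham retina, and the log2 fold change was -0.21 ± 0.06 (SE, adjusted p = 0.0646, limma). At 5 weeks the value for Grm7 was -0.03 (95% interval -0.16 to 0.10). Grm6, the receptor of ON bipolar dendrites, had log2 fold changes of -0.05 (95% interval -0.20 to 0.10) at 1 week and -0.06 (95% interval -0.14 to 0.02) at 5 weeks. Grm2, Grm5 and Grm8 lay between -0.05 and 0.02 at both timepoints, Grm3 was at 0.07 and -0.03, and Grm4 at -0.17 and -0.12.

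All 15 measured GABA-A subunit genes had a log2 fold change below 0 at 1 week, from -0.33 (Gabrg1) to -0.04 (Gabrd), against 50.1% of all genes. Of these, 9 had an unadjusted p under 0.05 by limma, where 8.93% of all genes were lower. At 5 weeks 10 of 15 were below 0, against 49.4% of all genes. Only 2 were lower at an unadjusted p under 0.05, where 6.95% of all genes were. The subunits assemble as pentamers, mostly of alpha, beta and gamma members. Among the alpha genes Gabra3 had the lowest p at 1 week, at 63.4, 71.8 and 82.5 CPM in sham and 59.5, 63.3 and 67.6 CPM in bTBI, with all 6 bTBI retinas below the sham median and a log2 fold change of -0.18 ± 0.06 (SE, adjusted p = 0.0868, limma). Gabra2 had the lowest at 5 weeks, at 12.8, 14.6 and 18.2 CPM in sham and 9.94, 13.4 and 14.8 CPM in bTBI, with a log2 fold change of -0.22 (95% interval -0.41 to -0.03).

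The beta genes encode subunits that take part in the GABA binding site. Gabrb2 was at 38.8, 44.0 and 46.5 CPM in sham and at 31.2, 36.2 and 44.0 CPM in bTBI at 1 week, with 5 of 6 bTBI retinas below every sham retina and a log2 fold change of -0.24 ± 0.08 (SE, adjusted p = 0.0752, limma). Gabrb1 had the lowest p of the class at 5 weeks, at 12.6, 14.6 and 16.0 CPM in sham and 10.8, 14.1 and 14.97 CPM in bTBI, with a log2 fold change of -0.12 (95% interval -0.29 to 0.06). At 1 week its value was -0.16.

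Gabrg1, a gamma subunit gene with a low level in these retinas, was at 7.46, 8.14 and 9.74 CPM in sham and 5.23, 6.71 and 7.54 CPM in bTBI at 1 week. Of the bTBI retinas 5 of 6 were below every sham retina, the mean was 77.3% of sham, and the log2 fold change was -0.33 ± 0.10 (SE, adjusted p = 0.0557, limma). At 5 weeks Gabrg1 was at 7.77 ± 0.31 CPM in sham and 7.75 ± 0.89 CPM in bTBI (SD, n = 6), a log2 fold change of -0.01 (95% interval -0.17 to 0.15). Gabrg3 was lower at both timepoints at an unadjusted p under 0.05, with log2 fold changes of -0.26 and -0.22 (adjusted p = 0.118 and 0.233, limma). At 5 weeks it was at 10.6, 13.6 and 14.4 CPM in sham and 10.1, 10.8 and 13.3 CPM in bTBI.

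The Gabrr genes, whose subunits form the slow GABA receptors of bipolar cells, showed small differences. Gabrr3 was at 22.6, 22.8 and 26.3 CPM in sham and 19.8, 21.1 and 23.3 CPM in bTBI at 1 week, with 5 of 6 bTBI retinas below every sham retina and a log2 fold change of -0.15 (95% interval -0.28 to -0.02, adjusted p = 0.209, limma). Gabrr1 was at 84.6, 93.2 and 100.3 CPM in sham and 89.5, 95.6 and 106.7 CPM in bTBI at 5 weeks, with a log2 fold change of 0.05 (95% interval -0.04 to 0.14). At 1 week Gabrr1 and Gabrr2 had values of -0.05 and -0.08, with intervals that included 0.

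Many of the GABA-A genes lie in clusters, and whether the members of a cluster differ from each other was not tested. In the cluster on chromosome 5 the log2 fold changes at 1 week were -0.33 for Gabrg1, -0.14 for Gabra2, -0.13 for Gabra4 and -0.16 for Gabrb1. The 95% interval of Gabrg1, -0.536 to -0.126, held the values of Gabra2, Gabra4 and Gabrb1. In the cluster on chromosome 7 the log2 fold changes were -0.26 for Gabrg3 and -0.30 for Gabra5. Gabra4 and Gabrb1 overlap on opposite strands in the GENCODE M21 annotation of GRCm38. The libraries were stranded, but the strand setting of the counting is not given in the sources used here, so values of this pair are uncertain where reads could be assigned to either. Gabra5 was at 0.408 to 1.49 CPM in the 1-week retinas, so its value of -0.30 (95% interval -0.60 to -0.002) rests on few reads.

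The bTBI effect was then compared between the timepoints in 1 fit over the 24 retinas and the 14455 genes in both tables. Of 47 members 0 differed at an adjusted p under 0.005, where 0.104% of all genes did, and the lowest adjusted p was 0.243 (limma). At an unadjusted p under 0.05 there were 5, all with a 5-week effect above the 1-week effect, against 2.86% of all genes in that direction. Among these were Gabrg1 (difference of log2 fold changes 0.32), Gabra3 (0.19), Grm7 (0.18) and Gria4 (0.14). The difference was above 0 for 35 of 47 members, against 52.1% of all genes, with a median of 0.08. The lower values at 1 week and the values nearer 0 at 5 weeks were therefore not shown to differ for any single member.

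Single retinas varied in how far the members lay from the sham mean as a whole. The median log2 difference over all members was -0.17 to -0.03 in the bTBI retinas at 1 week and -0.07 to 0.06 in the sham retinas, so the groups overlapped. For GABA and glycine receptor genes it was -0.22 to -0.14 in 5 bTBI retinas and -0.02 in bTBI replicate 2, against -0.06 to 0.04 in sham. For glutamate receptor genes the groups overlapped more widely, at -0.15 to -0.03 in bTBI and -0.11 to 0.08 in sham. At 5 weeks the median over all members was -0.11 to -0.01 in bTBI and -0.05 to 0.04 in sham. Replicate 2 also had the smallest difference in the 14 RGC markers among the bTBI retinas at 1 week, a median of -0.17, where the other 5 lay between -0.81 and -0.49. Without that retina 8 members had an adjusted p under 0.05 at 1 week, where the 12 fits without 1 retina gave 2 to 8. The share of all genes under 0.05 in that fit is not given here, so the count is not particular to the members. Glrb then passed 0.005 (adjusted p = 0.00274, with a range of 0.00274 to 0.0331 over the 12 fits, limma). Over all genes the number past 0.005 also varied in these fits, from 189 to 486. Whether the members moved more than other genes was not tested.

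**Figure D3:**
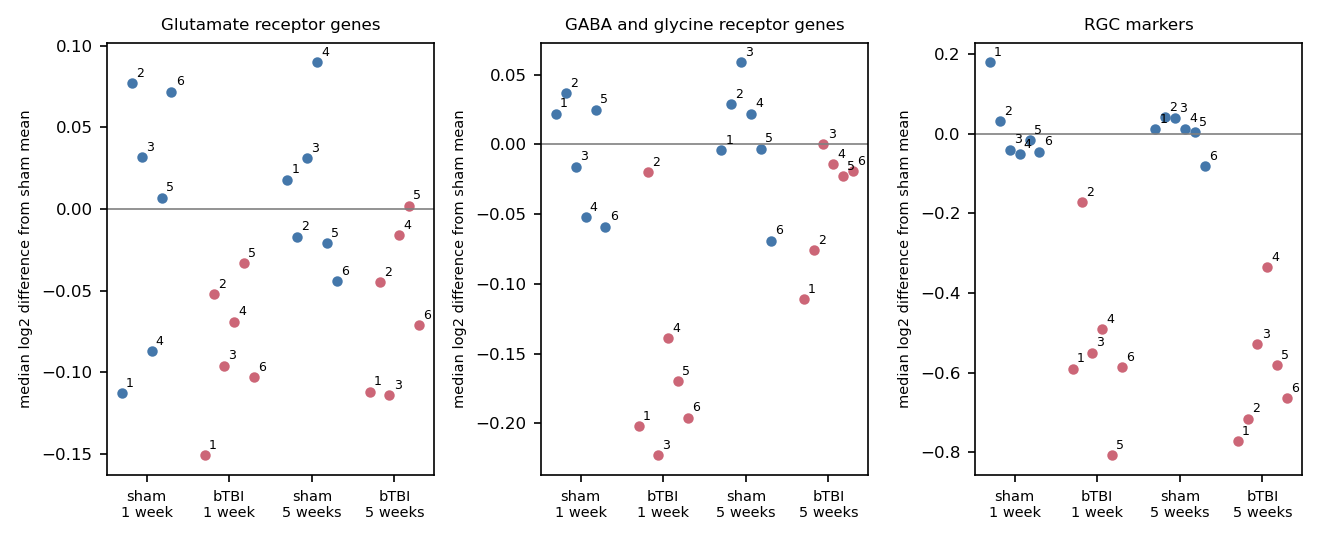
Median log2 difference from the sham mean of the same timepoint (y axis) over glutamate receptor genes (left), GABA and glycine receptor genes (middle) and 14 RGC markers (right), where each point is 1 retina, numbered by replicate, sham in blue and bTBI in red. At 1 week bTBI replicate 2 lies nearest to the sham retinas for GABA and glycine receptor genes (-0.02) and for RGC markers (-0.17). The vertical scales differ between panels.

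Markers of several cell types moved with the injury. Of the 14 RGC markers 10 fell at 1 week and 12 at 5 weeks, where 0.985% and 0.823% of all genes fell. Their median log2 fold changes were -0.50 and -0.62. On the log2(CPM + 1) scale, which understates changes of low genes, these medians were larger in size than the value of any receptor gene. The summed level of these markers was 1008 to 1604 CPM in bTBI and 1781 to 2113 CPM in sham at 1 week, and 635 to 893 CPM against 1074 to 1163 CPM at 5 weeks. At 1 week 7 of 9 microglia markers (219 to 561 CPM summed in bTBI, 131 to 204 CPM in sham) and 6 of 8 reactive macroglia markers rose, where 1.27% of all genes rose. Of the bipolar, amacrine, horizontal cell, rod and cone markers 0 passed 0.005 by limma at either timepoint. At an unadjusted p under 0.05, 4 of these 37 genes were lower and 2 higher at 1 week, against 8.93% and 8.32% of all genes. At 5 weeks 2 were lower and 5 higher, against 6.95% and 3.97% of all genes. A bipolar cell marker that was lower at 1 week is also among the 14 RGC markers. Beside the receptor median of -0.12 at 1 week, the median log2 fold change was -0.14 for cone markers (7 of 8 below 0), -0.115 for horizontal cell markers (4 of 5), -0.07 for bipolar cell markers (5 of 8), -0.04 for amacrine cell markers (6 of 8) and 0.05 for rod markers (2 of 8). The cone marker Arr3, an arrestin, had a value of -0.42 (adjusted p = 0.00601, limma) and is named here after its values were seen. At 5 weeks these medians were, in the same order, 0.01, 0.115, 0.05, 0.04 and 0.06. The summed lens markers reached 7446 CPM in a bTBI retina at 1 week against 715 CPM in the highest sham retina, and Mbp, a myelin gene, reached 2531 CPM in another, against 42.0 CPM. The part of these cell types in the receptor values was not tested. In a whole retina, fewer cells of a type and less RNA of a gene in each cell cannot be told apart.

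Other genes of the receptor pathways were counted from 4 lists, beside the 0.985% of all genes that fell at 1 week and the 0.823% that fell at 5 weeks. Of 26 auxiliary and anchoring genes of ionotropic glutamate receptors 2 fell at 1 week and 0 rose, namely Nrn1 (log2 fold change -0.67, adjusted p = 0.00097, limma), a surface protein that binds AMPA receptors, and Nptxr (-0.26, adjusted p = 0.00254), a neuronal pentraxin receptor that clusters them. Nrn1 was at 30.4 to 38.3 CPM in sham and 16.3 to 28.2 CPM in bTBI. At 5 weeks Nrn1 alone of this list passed (-0.65, adjusted p = 0.000658, limma). The list's median was -0.14 at 1 week, with 24 of 26 genes below 0, and -0.07 at 5 weeks, with 22 of 26 below 0, where 50.1% and 49.4% of all genes were below 0.

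Of 16 genes of the inhibitory postsynapse 1 fell at 1 week and 2 at 5 weeks. Iqsec3, an exchange factor that binds gephyrin, was at 411 to 444 CPM in sham and 318 to 365 CPM in bTBI at 1 week, groups that did not overlap. Its log2 fold change was -0.33 at the earlier timepoint (adjusted p = 0.000331, limma) and -0.21 at the later (adjusted p = 0.00211). Kif5a, a kinesin motor that carries GABA-A receptors among many other cargoes, passed at 5 weeks (-0.29, adjusted p = 0.000437, limma). Its log2 fold change was also -0.29 at 1 week, where it did not pass (adjusted p = 0.047, limma). Gephyrin (Gphn), the scaffold that binds Glrb, gave log2 values of -0.18 (adjusted p = 0.0549, limma) at 1 week and -0.06 at 5 weeks, and is named here after its values were seen. The medians of the list were -0.05 and -0.03.

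Of 15 genes of the Grm6 signaling cascade Rgs7, a regulator that speeds its G protein, fell at 1 week (log2 fold change -0.32, adjusted p = 0.00263, limma) and 0 passed at 5 weeks, where 3 were lower at an unadjusted p under 0.05 (6.95% of all genes were). Rgs7 was at 44.6 to 49.9 CPM in sham and 33.8 to 42.1 CPM in bTBI. The medians of this list were -0.04 and 0.01. Of 8 genes of GABA-B auxiliary subunits and of potassium channels that the receptor opens through G proteins, 0 passed at either timepoint by limma. At an unadjusted p under 0.05, 4 were lower at 1 week and 2 at 5 weeks, where 8.93% and 6.95% of all genes were. The lowest p was that of Kctd16, an auxiliary subunit of the GABA-B receptor, at both timepoints, with log2 fold changes of -0.42 and -0.28 (adjusted p = 0.0645 and 0.247, limma).

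The levels of the members in sham retinas give the setting for these values. Per kb of merged exon sequence (GENCODE M21), so that genes can be compared, Gabrr1 had the highest mean level at both timepoints, 65.9 ± 3.04 CPM per kb at 1 week and 40.7 ± 2.19 CPM per kb at 5 weeks (SD, n = 6). Gabrr2 followed with 46.3 ± 3.56 and 35.0 ± 1.66 CPM per kb, and the ranges of the pair did not overlap at 1 week but did at 5 weeks. Among the other inhibitory receptor genes Gabbr1 (33.4 ± 1.68 CPM per kb at 1 week) and Glrb (17.1 ± 0.74) each led its class. Gabbr1 was above Gabbr2, its obligate partner, which was at 15.6 ± 1.43 CPM per kb. Among the ionotropic glutamate receptor genes Grik1 (20.3 ± 0.73), Gria4 (13.5 ± 0.82), Grin1 (6.67 ± 0.66) and Grid1 (5.05 ± 0.23) led their classes at 1 week, and Grm6 (15.6 ± 1.31) led the metabotropic genes. The lowest at 1 week was Grin2c, at 0.232 ± 0.06 CPM per kb. Long merged exons that a retinal transcript does not use would lower the level per kb of a gene.

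**Figure D4:**
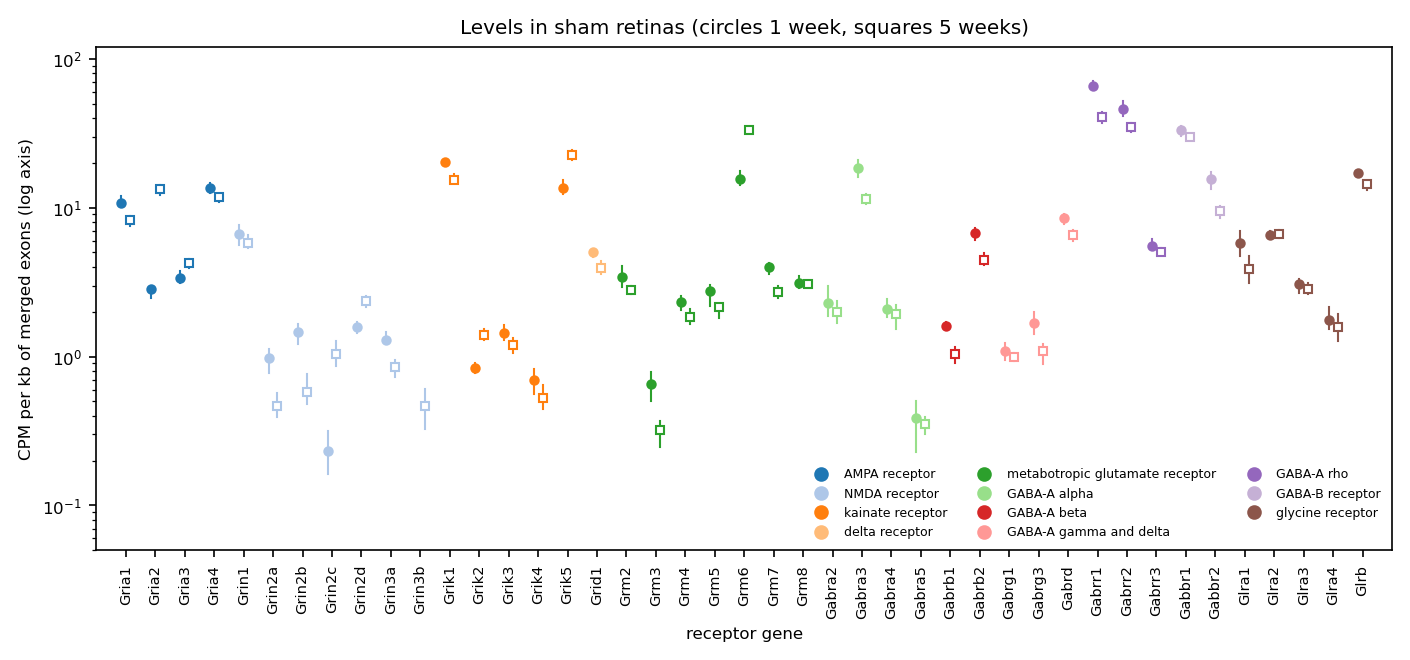
Mean level in sham retinas as CPM per kb of merged exons (y axis, log scale) for the receptor genes reported (x axis), with circles for 1 week and open squares for 5 weeks, lines from the lowest to the highest of 6 retinas, and colors for the receptor class. Gabrr1 is highest at both timepoints, and Gria2, Grin2c and Grm6 show the widest steps upward from 1 week to 5 weeks.

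In sham retinas 39 of 47 members had a lower mean CPM at 5 weeks than at 1 week, against 46.2% of the 14350 genes with a sham mean of at least 1 CPM at both timepoints, whose median ratio was 1.04. The opposite held most for Gria2, which was at 44.0 CPM at 1 week and 208 CPM at 5 weeks, a ratio of 4.73, and for Grin2c (1.17 and 5.24 CPM, ratio 4.48). In Gria2 all 12 retinas at 1 week, bTBI included, were between 35.5 and 46.5 CPM and all 12 at 5 weeks between 188 and 223 CPM. Gria4 thus led the AMPA class per kb at 1 week and Gria2 at 5 weeks, at 13.4 ± 0.71 CPM per kb (SD, n = 6). Grm6 was at 84.5 and 180 CPM (ratio 2.12), whereas Grin2b was at 36.5 and 14.3 CPM (ratio 0.391) and Grin2a at 17.5 and 8.30 CPM (ratio 0.475). Of those 14350 genes 12.7% had a ratio above 2, and 2.37% had one above that of Gria2. Timepoint, extraction kit and normalization cannot be told apart in these ratios.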

How the data were processed

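RNA-Seq libraries of single retinas (stranded, poly(A)-selected, paired-end) were compared as bTBI against sham within each timepoint, with 6 retinas a group from separate mice. The deposited signal values were made by the authors with STAR, featureCounts and edgeR on GRCm38 (mm10 in the submitters' processing notes), 1 table per timepoint, and are CPM scaled by effective library size, with weakly expressed genes removed. In each retina 100% of values were whole multiples of 1 step (tolerance 0.01). If 1 step were 1 read, the genes kept would hold 14301989 to 25158638 reads a retina. Low genes such as Gabra5 and Grin2c are the least certain. The step was not accepted as recovered reads, so count models were not used. Ensembl IDs were matched to symbols for 14907 of 14922 and 15902 of 15920 rows.

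Values were tested as log2(CPM + 1) with limma 3.58.1 in R 4.3.3 (trend, Benjamini-Hochberg over all genes of a table), with adjusted p under 0.005 as in the study, and the code was tested on simulated data. Fold changes on this scale understate those of low genes. The difference between timepoints was an interaction over 24 retinas. Members and gene lists were chosen with earlier results of these data known. Values by retina group are given for members with an adjusted p under 0.05 at either timepoint, or in a class without one for the member with the lowest p at each timepoint. Pathway genes are named where they passed 0.005, or otherwise for the lowest p of the list. A few genes are not reported here by name, though they stay in the fits and counts. Other members are given by their fold change and were not chosen by this rule. The alternatives were scaling by median of ratios or library totals, a minimum of 1 CPM in 6 retinas, a pseudocount of 0.1, a robust prior, a prior without trend, a replicate block, all 24 retinas in 1 fit, a threshold of 0.05, and leaving out single retinas or bTBI replicates 5 and 6 at 1 week together.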

Additional observations from a re-analysis of the deposited data

Results flagged for a closer look

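In 68 groups of 6 retinas of the named members, 4 held a retina far from the other 5 by Dixon's criterion. Chance sets apart about 1 in 20 groups, so this count is near what chance gives. At 5 weeks bTBI replicate 4 had 32.8 CPM of Gabrb2, where the other 5 bTBI retinas had 24.2 to 27.1 CPM, and 13.3 CPM of Gabrg3, where they had 10.1 to 10.9 CPM. This retina also had the RGC markers nearest to sham among the bTBI retinas at 5 weeks, a median log2 difference of -0.34. Whether its receptor values go with its RGC markers was not tested. bTBI replicate 1 at 5 weeks had 46.1 CPM of Gabbr2, against 54.5 to 59.9 CPM in the others. Sham replicate 4 at 5 weeks had 60.9 CPM of Glrb, against 67.4 to 70.4 CPM in the other sham retinas.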

How the results depend on the processing

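The count of members past an adjusted p of 0.005 was 0 at 1 week, 0 at 5 weeks and 0 for the difference between timepoints. At 1 week it was 3 with all 24 retinas in 1 fit or with a threshold of 0.05, and 0 to 1 in fits without 1 retina (Gabbr2 without sham replicate 4, Glrb without bTBI replicate 2). At 5 weeks it was 1 with a threshold of 0.05 and 0 in all 12 fits without 1 retina. Over all genes the 336 at 1 week became 685 with all 24 retinas, 907 at 0.05 and 112 without bTBI replicates 5 and 6 together, and ranged from 189 to 486 without 1 retina. The 133 at 5 weeks became 75 with all 24 retinas, 56 with a prior without trend and 326 at 0.05, and ranged from 88 to 163 without 1 retina. The threshold and the smaller number of retinas are parts of their own settings, and for the others the cause was not tested. Without 1 retina the members' median log2 fold change stayed between -0.15 and -0.10 at 1 week, and between -0.05 and -0.03 at 5 weeks.

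Single members near 0 changed sign when 1 retina was left out: Gabrg1 at 5 weeks spanned -0.051 to 0.042 (above 0 without sham replicate 2 or bTBI replicate 2) and Gabra3 at 5 weeks -0.011 to 0.03 (below 0 without sham replicate 5, sham replicate 6, bTBI replicate 1 or bTBI replicate 4). Without bTBI replicates 5 and 6 at 1 week Grik1 was at 0.001 and Gabrr1 at 0.023.

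The labels do not say whether the replicate numbers pair the retinas, and the main fit did not pair them. Correlations of deviations between retinas of the same number were -0.253 to 0.541 at 1 week and -0.112 to 0.151 at 5 weeks. These were not compared with retinas of unlike numbers, so they cannot decide it. With the replicate block 0 members and 293 genes passed at 1 week, and 0 members and 134 genes at 5 weeks. The edgeR and DESeq2 alternatives were not run. With 6 retinas a group the widest 95% interval of a member reached 0.31 (log2) on either side of its estimate. Members with narrower intervals allowed smaller differences to be seen.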
